A study of Mus musculus with 18 samples.

Results

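Nuclear RNA of BV2 cells exposed to oxyhemoglobin for 24 h was compared with nuclear RNA of untreated BV2 cells. BV2 is an immortalised mouse microglial line, and 1 line was used throughout. The groups were nuclei after 24 h of 10 µM oxyhemoglobin (3 libraries) and untreated control nuclei at 0 h (3 libraries). The whole series has 18 libraries and adds nuclei after 12 h and the cytoplasmic fraction of the same 3 conditions. No untreated group kept for 24 h and no vehicle group was analysed here, so time in culture and exposure cannot be told apart. The fractions were separated by lysis in a hypotonic detergent buffer and centrifugation, per the labels' protocols. Genes were taken if their mean count reached 10 in either nuclear group, which left 16960 of the 55487 genes in the count table.

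The deposited count table holds 1 mean per group, so no spread between libraries is known and no test across libraries could be made. Levels are given as normalised CPM, the group mean count scaled to a library total of 1000000 with TMM (trimmed mean of M-values) factors over the nuclear groups. A gene was called higher or lower at 24 h if it differed at least 2-fold and the exact 95% interval of the read ratio excluded equality. These intervals, given on the log2 scale, cover counting error only. A gene with under 10 counts in 1 group was compared because of its level in the other, so low genes that were compared tend to differ. In bulk RNA, fewer cells of a kind and less RNA per cell cannot be told apart.

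Microglia are the resident macrophages of the brain. After bleeding into the brain they meet hemoglobin released from lysed red cells, take up heme and iron, and can switch to a state in which they secrete cytokines and chemokines. Heme is broken down by heme oxygenase, and the transcription factors NF-kB, AP-1 and NRF2 are known drivers of inflammatory and antioxidant genes in these cells. The nuclear fraction holds RNA being made, RNA awaiting export and RNAs that work in the nucleus, such as small nuclear and small nucleolar RNAs.

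At 24 h, 1336 of the 16960 genes (7.88%) were higher and 940 (5.54%) were lower. Among 10903 protein-coding genes, 747 (6.85%) were higher and 424 (3.89%) were lower. The counts given below for gene lists are to be read beside these shares, and a count near them is no result about that list. Several genes for cytokines and chemokines and several RNA polymerase III transcripts stood among the largest increases, and a cluster of olfactory receptor genes, Igf1 and Hdac9 among the largest decreases. Il1b, Il6, Lta, Cxcl2, Ltb4r1, Ntng2, Bcl3, C2cd4d, Rny1 and Rn7s2, among others, had under 10 counts in control nuclei. They were compared because of their 24 h level and so had to be above control to some extent. The median over all genes was −0.02. The split between directions depended on the scaling. Of the calls, 58.7% were higher with TMM, 28.0% with total counts (765 higher, 1972 lower) and 12.9% with the deposited TPM (339 higher, 2280 lower). Total counts moved all log2 ratios by −0.30 and the TPM comparison moved their median by −0.56. Ratios close to the 2-fold limit are therefore tied to the TMM scaling, and 765 of the 1336 higher calls held under each scaling of the counts.

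**Figure D1:**
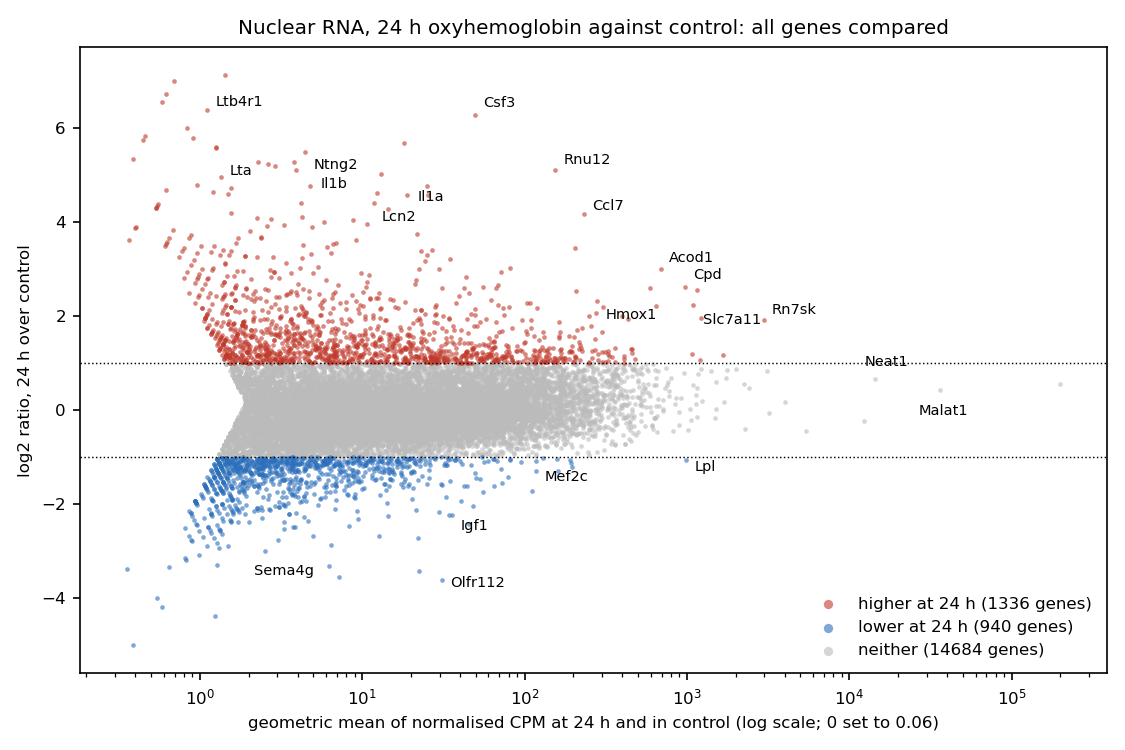
Log2 ratio of 24 h over control nuclei (vertical axis) against the geometric mean CPM (horizontal log axis) for 16960 genes. Red points are the 1336 genes called higher, blue points the 940 called lower, and dotted lines mark 2-fold; Csf3 and Ccl7 stand far above the upper line at high CPM and Olfr112 far below the lower one.

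The summed counts were 16031875 at 24 h and 14652566 in control nuclei. A single gene, ENSMUSG00000118642, which has no name in the annotation used, took 22.1% of the counts at 24 h and 18.6% in control nuclei. Of 18 macrophage and microglia markers, 14 at 24 h and 15 in control nuclei had a mean count of at least 10. The list summed to 6310 CPM at 24 h and 4753 CPM in control nuclei. Of the 15 compared, 1 was higher and 2 lower (median log2 ratio −0.07, −0.68 to −0.07 over the other scalings). Ptprc (CD45) had 323 CPM at 24 h against 531 CPM in control and was called neither way, while Ctss was at 0 in both. Markers of neurons, glia, endothelium, red cells and lymphocytes summed to 4.29 to 15.8 CPM per list at 24 h and 5.21 to 15.4 CPM in control nuclei, and the globin genes were at 0. Markers of cytoplasmic RNA summed to 5790.3 CPM at 24 h and 5523 CPM in control nuclei, and markers of nuclear RNA to 70178 CPM at 24 h and 48240.4 CPM in control nuclei. The nuclear list includes Rn7sk, which was more abundant in the cytoplasmic fraction. Its log2 ratio of nuclear to cytoplasmic level was −2.12 at 24 h and −2.96 in control, so the sum is no measure of purity. Whether cytoplasmic carry-over has a part in the results was not tested.

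Secreted inflammatory proteins included several of the largest increases among coding genes. Csf3, the granulocyte colony-stimulating factor, had 438 CPM at 24 h and 5.63 CPM in control nuclei (log2 ratio 6.28, interval 5.99 to 6.59). The interleukin-1 genes had low control levels. Il1a reached 92.8 CPM at 24 h, against 3.88 CPM in control nuclei (log2 ratio 4.58, interval 4.22 to 4.97), Il1b reached 24.9 CPM at 24 h, against 0.909 CPM in control nuclei (log2 ratio 4.78, interval 4.04 to 5.63), and Il1rn, the natural antagonist of their receptor, reached 61.7 CPM at 24 h, against 13.1 CPM in control nuclei (log2 ratio 2.23, interval 2.02 to 2.45). Il1f9, encoding interleukin-36 gamma, had 5.72 CPM at 24 h and 0.0606 CPM in control nuclei, a control level of 1 read in all, so its interval is wide (log2 ratio 6.56, interval 4.04 to 11.88). Il6 had 23.4 CPM at 24 h and 1.45 CPM in control nuclei (log2 ratio 4.01, interval 3.41 to 4.67). Osm, which encodes oncostatin M of the same receptor family, had 129 CPM at 24 h and 34.9 CPM in control nuclei (log2 ratio 1.88, interval 1.75 to 2.02). Ebi3, a subunit of interleukin-27, had a log2 ratio of 1.68 and Il18 one of 2.43. Of 17 genes of the interleukin-1 family and inflammasome, 5 were higher and 2 lower (median log2 ratio 0.06, −0.54 to 0.06 over the other scalings). The lower ones were the receptor gene Il1rl1 (−1.09) and the inflammasome sensor gene Nlrp3 (−1.07).

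CC chemokines, which draw monocytes and T cells, were higher for 6 of 8 genes measured and lower for none (median log2 ratio 1.83, 1.21 to 1.83 over the other scalings). Ccl7 had 985 CPM at 24 h and 54.7 CPM in control nuclei (log2 ratio 4.17, interval 4.07 to 4.27). Ccl3 was the chemokine gene with the highest CPM, at 2399 CPM at 24 h and 615 CPM in control nuclei (log2 ratio 1.96, interval 1.93 to 2.0). Ccl2 had 75.9 CPM at 24 h against 12.5 CPM in control and Ccl5 15.5 CPM at 24 h against 2.79 CPM in control. Ccl9 had 382 CPM at 24 h against 118 CPM in control and Ccl4 725 CPM at 24 h against 293 CPM in control. Among CXC chemokines, Cxcl2 (log2 ratio 3.66) and Cxcl10 (1.46) were higher at low levels. Of 19 genes for TNF ligands and receptors, 6 were higher and 3 lower (median log2 ratio 0.69, 0.07 to 0.70 over the other scalings). Tnf had 29.9 CPM at 24 h and 4.06 CPM in control nuclei (log2 ratio 2.88, interval 2.51 to 3.28) and Lta, encoding lymphotoxin alpha, 17.7 CPM at 24 h and 0.485 CPM in control nuclei (log2 ratio 5.19, interval 4.19 to 6.41). The lower genes were Tnfrsf9 (−1.93), Tnfrsf14 (−1.79) and Tnfsf13b (−1.27), the last of which encodes the B cell factor BAFF.

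The named genes for growth factors and related cytokines included higher and lower ones. Igf1, a trophic factor that microglia release, fell to 16.4 CPM at 24 h, against 77.7 CPM in control nuclei (log2 ratio −2.24, interval −2.45 to −2.04). Csf1, the factor on which macrophages depend, fell to 17.6 CPM at 24 h, against 52.6 CPM in control nuclei (log2 ratio −1.58, interval −1.79 to −1.38). Interleukin-15 (Il15) was also lower, at 4.57 CPM at 24 h against 13.9 CPM in control. Tgfb1 had 188 CPM at 24 h and 90.7 CPM in control nuclei (log2 ratio 1.05, interval 0.96 to 1.14), a call lost under total counts, and Hdgf 353 CPM at 24 h and 142 CPM in control nuclei (log2 ratio 1.31, interval 1.24 to 1.39). Edn1, the endothelin-1 gene, and Gdf15, a stress-induced cytokine gene, had log2 ratios of 3.29 and 3.66 from low levels. Of 19 growth factor genes, 4 were higher and 1, Igf1, lower (median log2 ratio 0.15, −0.42 to 0.15 over the other scalings). Over all genes, 7.88% were higher and 5.54% lower. Csf1 and Il15 were counted in other lists. Lcn2, encoding lipocalin 2, which binds bacterial iron carriers, had 54.2 CPM at 24 h and 2.54 CPM in control nuclei (log2 ratio 4.41, interval 3.97 to 4.90).

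**Figure D2:**
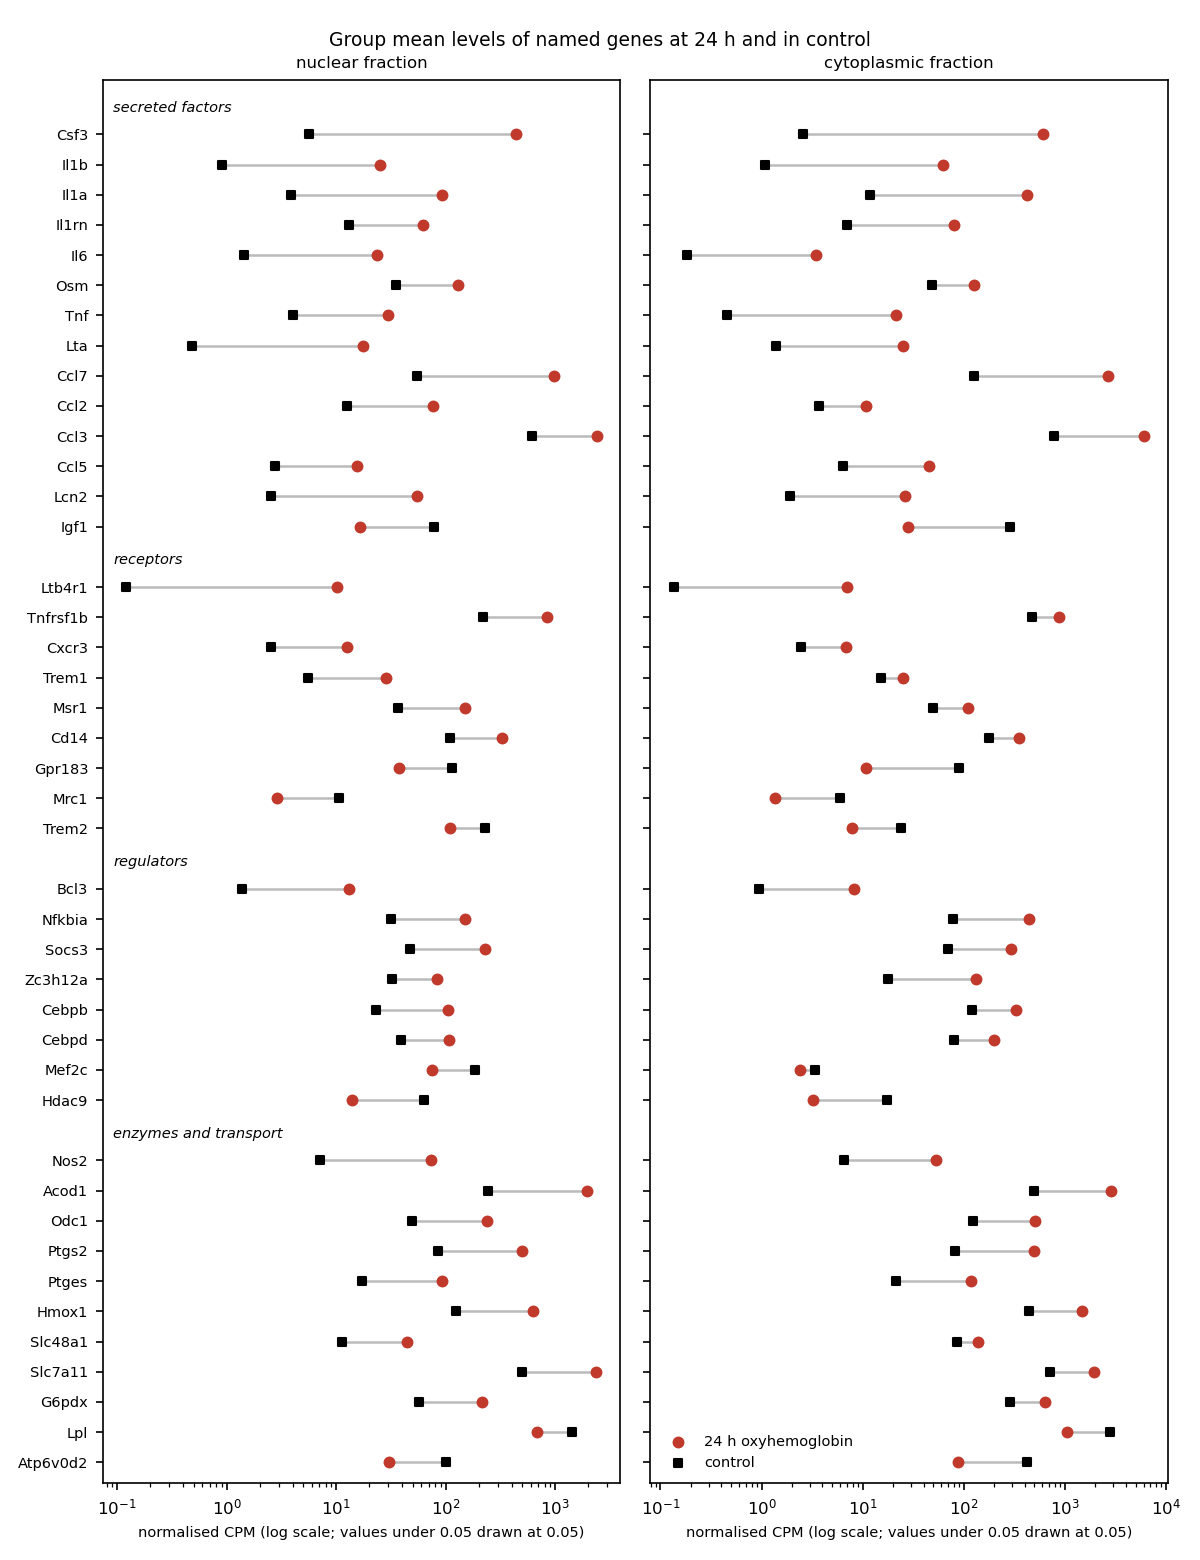
Group mean levels of secreted factors, receptors, regulators and enzymes in the nuclear (left) and cytoplasmic (right) fraction, as normalised CPM on a log axis. Red circles are 24 h and black squares control; circles lie right of squares for genes such as Csf3, Ccl7 and Hmox1 and left of them for Igf1, Gpr183 and Atp6v0d2.

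Receptor genes were divided. Ltb4r1, the high-affinity leukotriene B4 receptor, had 10.2 CPM at 24 h and 0.121 CPM in control nuclei, a control level of a few reads (log2 ratio 6.39, interval 4.51 to 9.45). Tnfrsf1b, encoding TNF receptor 2, was abundant and reached 849 CPM at 24 h, against 221 CPM in control nuclei (log2 ratio 1.94, interval 1.89 to 1.99). Trem1, a receptor that amplifies inflammatory signalling, had 28.6 CPM at 24 h and 5.51 CPM in control nuclei (log2 ratio 2.38, interval 2.05 to 2.72). Cd14, the lipopolysaccharide co-receptor, had 324 CPM at 24 h and 109 CPM in control nuclei (log2 ratio 1.58, interval 1.5 to 1.66), and Tlr9, a sensor of unmethylated DNA, 162 CPM at 24 h against 60.1 CPM in control. Tlr4, the receptor through which heme and lipopolysaccharide are known to signal, did not pass, with 168 CPM at 24 h and 156 CPM in control nuclei (log2 ratio 0.11, interval 0.03 to 0.19). Of 26 genes for Toll-like receptors and adaptors, 3 were higher and 1 lower (median log2 ratio 0.08, −0.53 to 0.08 over the other scalings), beside 7.88% and 5.54% of all genes.

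Among chemokine receptors, 4 of 10 were higher, of which 2 kept the call under every scaling of the counts, and 3 lower (median log2 ratio 0.64, 0.02 to 0.64 over the other scalings). Cxcr3 had 12.5 CPM at 24 h and 2.54 CPM in control nuclei (log2 ratio 2.30, interval 1.81 to 2.82). Gpr183, a receptor for oxysterols that was counted in this list, fell to 37.3 CPM at 24 h, against 114 CPM in control nuclei (log2 ratio −1.61, interval −1.75 to −1.47). Cxcr4 fell to 3.95 CPM at 24 h, against 11.8 CPM in control nuclei (log2 ratio −1.58, interval −2.03 to −1.15). Of 23 scavenger, lectin and Fc receptor genes, 6 were higher and 4 lower (median log2 ratio 0.42, −0.19 to 0.43 over the other scalings). Msr1, the class A scavenger receptor, had 149.5 CPM at 24 h and 36.9 CPM in control nuclei (log2 ratio 2.02, interval 1.89 to 2.15), and Siglec1, the sialic acid receptor CD169, 425 CPM at 24 h against 175 CPM in control, a call lost under total counts. Mrc1, the mannose receptor, fell to 2.86 CPM at 24 h, against 10.7 CPM in control nuclei (log2 ratio −1.90, interval −2.42 to −1.40). Cd300a, an inhibitory receptor gene, was lower at 2.18 CPM at 24 h against 8.30 CPM in control. Cd163, the hemoglobin-haptoglobin receptor, was listed at 0 in both nuclear groups. Hpx, which encodes the heme carrier hemopexin, had a mean count of 0.667 at 24 h and 0 in control nuclei and was not compared.

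Regulators of inflammatory transcription included inhibitors and co-factors among the higher genes. Bcl3, a nuclear partner of NF-kB p50 and p52, had 13.1 CPM at 24 h and 1.39 CPM in control nuclei (log2 ratio 3.23, interval 2.60 to 3.92). Nfkbia, the inhibitor IkB alpha and itself an NF-kB target, had 149 CPM at 24 h and 31.9 CPM in control nuclei (log2 ratio 2.23, interval 2.09 to 2.37). The subunit genes Nfkb1 (143 CPM at 24 h against 76.1 CPM in control) and Rela (18.3 CPM at 24 h against 13.3 CPM in control) did not pass, at log2 ratios of 0.91 and 0.47. In the whole list of 25 NF-kB subunits and inhibitors, 3 were higher and 1, Tnip3, was lower (median log2 ratio 0.22, −0.38 to 0.22 over the other scalings), beside 7.88% and 5.54% of all genes. Of 31 genes for mRNA decay and signalling feedback, 8 were higher and 2 lower (median log2 ratio 0.40, −0.21 to 0.40 over the other scalings). Socs3, an inhibitor of cytokine receptor signalling, had 229 CPM at 24 h and 47.1 CPM in control nuclei (log2 ratio 2.28, interval 2.17 to 2.40). Zc3h12a, encoding the RNase Regnase-1 that cuts cytokine mRNAs, had 84.1 CPM at 24 h and 32.4 CPM in control nuclei (log2 ratio 1.38, interval 1.23 to 1.52). Ptpn22, a tyrosine phosphatase gene, fell to 2.93 CPM at 24 h, against 10.7 CPM in control nuclei (log2 ratio −1.87, interval −2.39 to −1.38).

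Cebpb and Cebpd, which encode C/EBP factors of acute inflammation, had 104 CPM at 24 h against 23.3 CPM in control and 108 CPM at 24 h against 38.9 CPM in control (log2 ratio 2.16, interval 1.99 to 2.32 for Cebpb). Mef2c, a factor that restrains microglial activation, fell to 75.6 CPM at 24 h, against 185 CPM in control nuclei (log2 ratio −1.29, interval −1.39 to −1.19). Of 33 AP-1, EGR and immediate early factors, 7 were higher, of which 4 kept the call under every scaling of the counts, and 4 were lower (median log2 ratio 0.32, −0.29 to 0.32 over the other scalings). Junb (304 CPM at 24 h against 137 CPM in control, lost under total counts), Fosl2 (207 CPM at 24 h against 73.6 CPM in control) and Ier3 (793 CPM at 24 h against 199 CPM in control) were higher, while Fosb (1.64 CPM at 24 h against 7.63 CPM in control) and Egr3 (0.409 CPM at 24 h against 4.00 CPM in control) were lower. Pim2, a survival kinase gene, had 79.8 CPM at 24 h and 5.94 CPM in control nuclei (log2 ratio 3.75, interval 3.45 to 4.06).

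Promoter sequences, 250 bases before and 50 after the start, were read from RefSeq on GRCm38.p6 for 537 of the 747 higher, 314 of the 424 lower and 8552 of all 10903 protein-coding genes. An AP-1 motif, TGANTCA, occurred on either strand in 10.8% of the promoters of higher genes, 6.69% of lower genes and 4.92% of all. The NF-kB motif (GGG, any 2 bases, TTTCC) occurred in 2.23% of higher, 1.27% of lower and 1.52% of all promoters, and the C/EBP motif TTGCNNAA in 10.99% of higher, 9.55% of lower and 7.96% of all. The antioxidant response core TGACNNNGC, which can overlap the AP-1 motif, occurred in 17.1% of higher, 13.1% of lower and 14.8% of all. The TATA box sequence TATAAA, also counted on either strand, occurred in 10.6% of higher, 10.5% of lower and 6.82% of all. The sterol response motif TCACCCCAC occurred in 0.559% of higher, 0.318% of lower and 0.561% of all. Of 14 promoters of named higher genes read, those of Il6 and Nfkbia held the NF-kB motif, and they are shown for that reason. Capitals mark matches of the NF-kB, AP-1 and C/EBP motifs on either strand, none of which overlap here. The Il6 promoter lies at chr5:30012864-30013163 on the plus strand and holds all 3 motifs. The Nfkbia promoter lies at chr12:55492598-55492897 on the minus strand and holds, of these 3, the NF-kB motif. It also holds an antioxidant response core and, only on the strand opposite to the one shown, TATAAA. Neither is in capitals.
Il6: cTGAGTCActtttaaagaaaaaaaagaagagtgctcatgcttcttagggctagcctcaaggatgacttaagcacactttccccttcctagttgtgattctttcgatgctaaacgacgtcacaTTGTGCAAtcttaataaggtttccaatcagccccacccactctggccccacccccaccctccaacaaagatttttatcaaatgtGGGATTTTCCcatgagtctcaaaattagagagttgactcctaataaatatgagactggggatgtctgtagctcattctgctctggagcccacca
Nfkbia: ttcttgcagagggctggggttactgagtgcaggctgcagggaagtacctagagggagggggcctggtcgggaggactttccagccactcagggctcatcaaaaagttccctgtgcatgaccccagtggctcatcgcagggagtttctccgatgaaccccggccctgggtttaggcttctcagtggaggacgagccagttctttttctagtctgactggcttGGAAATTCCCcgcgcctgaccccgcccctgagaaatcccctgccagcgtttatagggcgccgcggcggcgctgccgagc
A match of letters describes the window and shows no binding.

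Of 20 genes for arginine, nitric oxide, polyamine and itaconate metabolism, 5 were higher, none was lower and 15 did not pass (median log2 ratio −0.04, −0.62 to −0.04 over the other scalings). Nos2, the inducible nitric oxide synthase, had 74.1 CPM at 24 h and 7.09 CPM in control nuclei (log2 ratio 3.39, interval 3.11 to 3.67). Acod1, which makes itaconate, was among the most abundant induced genes, with 1963 CPM at 24 h and 243 CPM in control nuclei (log2 ratio 3.01, interval 2.96 to 3.06). Odc1, the first enzyme of polyamine synthesis, had 239.8 CPM at 24 h and 49.2 CPM in control nuclei (log2 ratio 2.28, interval 2.17 to 2.40), and Srm, which makes spermidine, 79.0 CPM at 24 h against 25.1 CPM in control. Odc1 shared 31.3% of its 31-base words with other genes, so its value is uncertain.

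Of 23 genes of the prostaglandin and leukotriene pathways, 4 were higher, 3 were lower and 16 did not pass (median log2 ratio 0.24, −0.37 to 0.24 over the other scalings). Ptgs2, the inducible cyclooxygenase, had 497 CPM at 24 h and 86.0 CPM in control nuclei (log2 ratio 2.53, interval 2.45 to 2.61), and Ptges, the terminal prostaglandin E synthase, 92.1 CPM at 24 h and 17.1 CPM in control nuclei (log2 ratio 2.43, interval 2.24 to 2.62). Ptgr1, which inactivates leukotriene B4 and prostaglandins, had 42.2 CPM at 24 h and 11.2 CPM in control nuclei (log2 ratio 1.91, interval 1.67 to 2.16). The cysteinyl leukotriene synthase gene Ltc4s (2.66 CPM at 24 h against 5.81 CPM in control) and the receptor gene Cysltr1 (14.3 CPM at 24 h against 31.4 CPM in control) were lower.

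Genes that handle heme and iron meet the cargo of hemoglobin directly. Hmox1, the heme oxygenase that opens the heme ring, had 629 CPM at 24 h and 125 CPM in control nuclei (log2 ratio 2.33, interval 2.26 to 2.40). Slc48a1, the transporter that moves heme out of the phagolysosome, had 44.1 CPM at 24 h and 11.3 CPM in control nuclei (log2 ratio 1.96, interval 1.72 to 2.2). Ppox, of heme synthesis, was lower at 2.04 CPM at 24 h against 5.03 CPM in control. Blvrb, a biliverdin reductase gene, did not pass (log2 ratio 0.90, interval 0.56 to 1.25). Of 21 heme genes, 2 were higher and 1 lower (median log2 ratio 0.06, −0.52 to 0.06 over the other scalings), beside 7.88% and 5.54% of all genes. Of 19 iron genes, 6 were higher and none lower (median log2 ratio 0.42, −0.19 to 0.42 over the other scalings), but 1 of the 6, Lcn2, kept its call under every scaling of the counts. The others lay just above 2-fold: the iron importers Slc11a2 (149.5 CPM at 24 h against 69.5 CPM in control) and Slc39a14 (304 CPM at 24 h against 140.2 CPM in control), the iron sensor Aco1 (55.1 CPM at 24 h against 25.4 CPM in control), the scaffold Iscu (5.66 CPM at 24 h against 2.54 CPM in control) and the iron chaperone Pcbp1 (457 CPM at 24 h against 195 CPM in control). The ferritin genes Fth1 (752 CPM at 24 h against 520.0 CPM in control) and Ftl1 (47.0 CPM at 24 h against 49.6 CPM in control, uncertain because another annotated gene overlaps it) did not pass, nor did the iron exporter gene Slc40a1 (175 CPM at 24 h against 185 CPM in control).

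Thiol and NADPH genes were higher in part. Slc7a11, the cystine importer that feeds glutathione synthesis, was among the most abundant higher genes, with 2362 CPM at 24 h and 503 CPM in control nuclei (log2 ratio 2.23, interval 2.2 to 2.27). Srxn1 and Gsr, which restore oxidised peroxiredoxin and glutathione, had 184 CPM at 24 h against 57.1 CPM in control and 182 CPM at 24 h against 59.0 CPM in control. G6pdx and Pgd, which make NADPH in the pentose phosphate pathway, had 215 CPM at 24 h against 56.7 CPM in control and 699.7 CPM at 24 h against 301 CPM in control, the Pgd call being lost under total counts and G6pdx being uncertain with 23.6% of its words shared. Cat, the catalase gene, had 124 CPM at 24 h and 38.9 CPM in control nuclei (log2 ratio 1.67, interval 1.54 to 1.80). The regulator genes themselves did not pass: Nfe2l2, encoding NRF2, had 339 CPM at 24 h against 263 CPM in control, and Bach1, its heme-sensing competitor, 98.7 CPM at 24 h against 92.5 CPM in control. Of 39 NRF2 regulators and thiol enzymes, 7 were higher, of which 5 kept the call under every scaling of the counts, and 4 were lower (median log2 ratio 0.26, −0.34 to 0.27 over the other scalings). The lower ones included Txnip, an inhibitor of thioredoxin, at 46.4 CPM at 24 h against 97.9 CPM in control.

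Matrix proteases and their inhibitors were higher for 8 of 17 genes, of which 5 kept the call under every scaling of the counts, and lower for 1 (median log2 ratio 0.75, 0.12 to 0.75 over the other scalings). Mmp13, a collagenase, had 22.01 CPM at 24 h and 7.75 CPM in control nuclei (log2 ratio 1.51, interval 1.21 to 1.81). Mmp9, a gelatinase, had 45.3 CPM at 24 h against 21.7 CPM in control, a call lost under total counts. Mmp12, the macrophage elastase, fell to 7.16 CPM at 24 h, against 20.0 CPM in control nuclei (log2 ratio −1.49, interval −1.82 to −1.17).

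Cholesterol synthesis genes were higher for 8 of 31, of which 4 kept the call under every scaling of the counts, and lower for none (median log2 ratio 0.69, 0.02 to 0.69 over the other scalings). Hsd17b7 and Idi1, enzymes of the pathway, had 25.2 CPM at 24 h against 4.91 CPM in control and 23.9 CPM at 24 h against 7.51 CPM in control, Idi1 being uncertain with 27.1% of its words shared, and Stard4, a sterol carrier, 66.9 CPM at 24 h and 19.4 CPM in control nuclei (log2 ratio 1.78, interval 1.60 to 1.97). Of 15 liver X receptor targets and lipid efflux genes, none was higher, and Apoe (5.79 CPM at 24 h against 18.4 CPM in control) and Lpl were lower (median log2 ratio −0.21, −0.82 to −0.21 over the other scalings). Lpl, the lipoprotein lipase that microglia express when loaded with lipid, fell to 684 CPM at 24 h, against 1434 CPM in control nuclei (log2 ratio −1.07, interval −1.10 to −1.03). Of 28 ER chaperones and unfolded protein response genes, 5 were higher and none lower (median log2 ratio 0.14, −0.48 to 0.14 over the other scalings), led by the disulfide isomerase gene Pdia4 at 348 CPM at 24 h against 119 CPM in control. Of 17 heat shock genes, 3 were higher and none lower (median log2 ratio 0.37, −0.25 to 0.37 over the other scalings), and none of the 3 kept its call under every scaling of the counts.

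Among genes of microglial identity, lower calls included receptors and lipid genes. Of 18 homeostatic genes, 5 were lower and 2 higher, of which 1 kept the call under total counts (median log2 ratio −0.47, −1.04 to −0.47 over the other scalings). Trem2, a lipid-sensing receptor, fell to 110.2 CPM at 24 h, against 227 CPM in control nuclei (log2 ratio −1.04, interval −1.13 to −0.96), and the purinergic receptor gene P2ry13 to 2.86 CPM at 24 h, against 6.72 CPM in control nuclei. Tmem119, a membrane protein gene that marks homeostatic microglia, was higher, with 5.25 CPM at 24 h and 0.909 CPM in control nuclei (log2 ratio 2.53, interval 1.72 to 3.44). It had under 10 counts in control nuclei and was compared because of its 24 h level. The list of disease-associated genes had 9 of 31 lower and 3 higher (median log2 ratio −0.22, −0.83 to −0.22 over the other scalings). Atp6v0d2, a proton pump subunit of phagolysosomes, fell to 30.3 CPM at 24 h, against 101 CPM in control nuclei (log2 ratio −1.74, interval −1.90 to −1.59). Tyrobp, the adaptor of Trem2, was low and fell to 0.682 CPM at 24 h, against 2.73 CPM in control nuclei (log2 ratio −2.0, interval −3.15 to −0.99). Cd68, a lysosomal membrane protein gene, and Cd52 were higher, at 33.9 CPM at 24 h against 12.6 CPM in control and 68.1 CPM at 24 h against 23.7 CPM in control. Apoe, Lpl, Igf1, Csf1 and Cd68 appear in more than one list, so the lists are not independent. Of 47 lysosome and autophagy genes, 4 were lower and 1 higher, a call lost under total counts (median log2 ratio −0.14, −0.74 to −0.14 over the other scalings), the cathepsin gene Ctsf among the lower ones at 5.52 CPM at 24 h against 17.8 CPM in control. Antigen presentation genes were lower for 3 of 25 and higher for 2, of which 1 kept the call under total counts (median log2 ratio −0.32, −0.90 to −0.32 over the other scalings), and interferon response genes were higher for 4 of 43, of which 2 kept the call under total counts, and lower for 2 (median log2 ratio −0.05, −0.65 to −0.05 over the other scalings). Over all genes, 7.88% were higher and 5.54% lower, and the interferon counts lie near these shares, so they are no result about that list. Isg15, a ubiquitin-like interferon target, had 33.0 CPM at 24 h and 10.9 CPM in control nuclei, and Mx1, an antiviral GTPase gene, was lower at 3.48 CPM at 24 h, against 11.7 CPM in control nuclei.

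**Figure D3:**
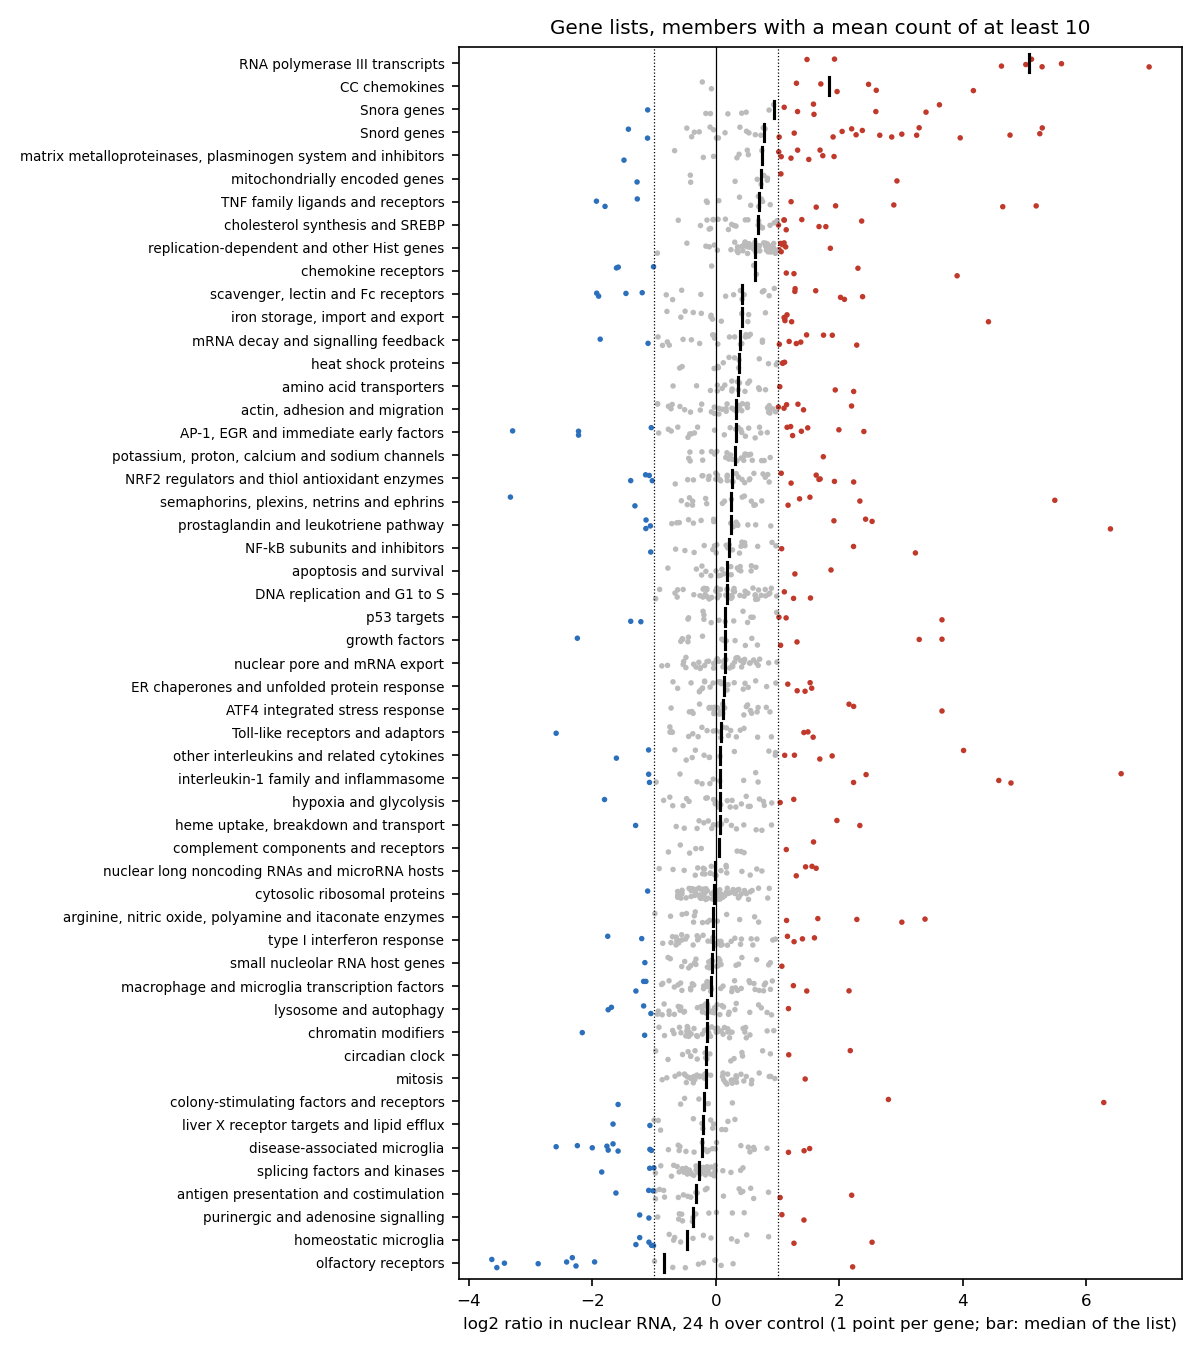
Log2 ratio of 24 h over control nuclei for members of each gene list with a mean count of at least 10 (1 point per gene; red higher, blue lower, grey neither; black bar, median). RNA polymerase III transcripts lie furthest right with a median of 5.07 and olfactory receptors furthest left with a median of −0.84. Of the former, Rny1, Rn7s2, Bc1 and Vaultrc5 had under 10 counts in control nuclei and were compared because of their 24 h level.

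Guidance and adhesion genes included some of the largest changes. Ntng2, encoding the membrane-anchored netrin G2, had 29.9 CPM at 24 h and 0.666 CPM in control nuclei (log2 ratio 5.49, interval 4.64 to 6.5), and Epha2, an ephrin receptor gene, 20.4 CPM at 24 h and 4.06 CPM in control nuclei (log2 ratio 2.33, interval 1.95 to 2.74). Sema4g, a membrane semaphorin gene, fell to 1.98 CPM at 24 h, against 19.8 CPM in control nuclei (log2 ratio −3.33, interval −3.93 to −2.78). Of 23 genes for semaphorins, plexins, netrins and ephrins, 5 were higher and 2 lower (median log2 ratio 0.25, −0.36 to 0.25 over the other scalings). Of 43 actin, adhesion and migration genes, 6 were higher, of which 3 kept the call under every scaling of the counts, and none lower (median log2 ratio 0.33, −0.27 to 0.34 over the other scalings). Marcks, a membrane-cytoskeleton linker, had 60.3 CPM at 24 h and 13.1 CPM in control nuclei (log2 ratio 2.2, interval 1.98 to 2.42), and Actb 568 CPM at 24 h against 226 CPM in control, which is uncertain with 23.6% of its words shared. Lix1, which had 20.2 CPM at 24 h and 1.82 CPM in control nuclei (log2 ratio 3.47, interval 2.93 to 4.07), and Cpd, a carboxypeptidase gene with 2404 CPM at 24 h and 390.0 CPM in control nuclei (log2 ratio 2.62, interval 2.59 to 2.66), were also higher.

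Genes for the nuclear machinery mostly did not pass, and over all genes 7.88% were higher and 5.54% lower. Of 47 splicing factors and kinases, none was higher and 3 were lower (median log2 ratio −0.27, −0.84 to −0.26 over the other scalings). Hnrnph1, a splicing factor gene, fell to 17.2 CPM at 24 h, against 62.0 CPM in control nuclei (log2 ratio −1.85, interval −2.05 to −1.65), with a cytoplasmic log2 ratio of 0.04. Clk1, a kinase of SR proteins, fell to 132 CPM at 24 h, against 277 CPM in control nuclei (log2 ratio −1.07, interval −1.15 to −0.99), with −0.40 in the cytoplasm. Of 47 chromatin modifiers, none was higher and 2 were lower (median log2 ratio −0.14, −0.70 to −0.14 over the other scalings). Hdac9, a class IIa histone deacetylase gene, fell to 14.04 CPM at 24 h, against 62.8 CPM in control nuclei (log2 ratio −2.16, interval −2.38 to −1.94). None of 44 nuclear pore and mRNA export genes was called (median log2 ratio 0.14, −0.47 to 0.14 over the other scalings). Of 56 replication genes 3 were higher, of which 1 kept the call under every scaling of the counts, and none lower (median log2 ratio 0.18, −0.42 to 0.18 over the other scalings), and of 47 mitosis genes 1 was higher and none lower (median log2 ratio −0.15, −0.69 to −0.15 over the other scalings), among them Ccne1 (39.3 CPM at 24 h against 13.6 CPM in control) and Plk1 (37.8 CPM at 24 h against 13.9 CPM in control). Histone genes lay on the higher side, with 7 of 56 higher, none lower and median log2 ratio 0.64 (0.02 to 0.64 over the other scalings), but 1 of the 7 kept its call under every scaling of the counts, and as a multigene family their values are uncertain.

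RNA polymerase III transcripts had the highest median of the lists: the 8 of 13 listed that had enough reads were each higher (median log2 ratio 5.07, 4.31 to 5.07 over the other scalings). Rny1, Rn7s2, Bc1 and Vaultrc5 had under 10 counts in control nuclei. They entered through their 24 h level and so had to be above control to some extent. The median rests in part on them. The rise of the listed members did not extend to the annotated class that holds Rny1, Rny3, Rn7sk and Rn7s2. Of all 79 genes annotated as misc_RNA, 8 (10.1%) were higher and 10 (12.7%) lower, with a median log2 ratio of −0.17. RNA polymerase III makes short structured RNAs that end in a run of U. Rny1 and Rny3, Y RNAs that bind the Ro60 protein, had 23.6 CPM at 24 h and 0.606 CPM in control nuclei (log2 ratio 5.28, interval 4.39 to 6.36) and 74.6 CPM at 24 h and 2.30 CPM in control nuclei (log2 ratio 5.02, interval 4.55 to 5.53). Rpph1, the RNA of RNase P, had 61.3 CPM at 24 h and 2.48 CPM in control nuclei (log2 ratio 4.62, interval 4.17 to 5.11), and Vaultrc5, a vault RNA, 8.79 CPM at 24 h and 0.182 CPM in control nuclei (log2 ratio 5.60, interval 4.02 to 7.89). Rn7sk, which holds back the elongation factor P-TEFb, was the most abundant, with 5797 CPM at 24 h and 1530.2 CPM in control nuclei (log2 ratio 1.92, interval 1.90 to 1.94). Rn7s2 and Rn7s1, copies of the signal recognition particle RNA, had log2 ratios of 5.11 and 1.48, and Bc1 had 7.84 CPM at 24 h and 0.0606 CPM in control nuclei, the control value being 1 read (log2 ratio 7.02, interval 4.51 to 12.33). Most of these have near copies in the genome. Of their 31-base words, Rn7s1 and Rn7s2 shared 100%, Rn7sk 72.8%, Rpph1 70.2%, Bc1 42.0% and Rny1 37.8% with other annotated genes, so these values are uncertain. In the cytoplasm the same 8 were also higher, with Rny1 at 354 CPM at 24 h and 9.64 CPM in control cytoplasm and Rpph1 at 705 CPM at 24 h and 8.51 CPM in control cytoplasm. At 12 h the nuclear log2 ratios over the same control were 4.41 for Rny1, 4.21 for Rny3 and 1.43 for Rn7sk.

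Among spliceosomal RNAs, Rnu12 (U12, which recognises branch points of rare minor introns) had 906 CPM at 24 h and 26.1 CPM in control nuclei (log2 ratio 5.12, interval 4.98 to 5.26), and it shared 87.6% of its words with other genes and is uncertain. Rnu1a1, a U1 gene, had 11.9 CPM at 24 h and 3.57 CPM in control nuclei (log2 ratio 1.73, interval 1.30 to 2.18), while Rnu5g, a U5 gene, did not pass (6.20 CPM at 24 h against 8.90 CPM in control). U1 and U5 have many gene copies, so both values are uncertain. Across all 195 genes annotated as small nuclear RNA, 19 (9.74%) were higher and 43 (22.1%) lower. Of 20 genes annotated as scaRNA, the guide RNAs of Cajal bodies, 12 were higher and none lower. Scarna13 had 63.2 CPM at 24 h and 7.93 CPM in control nuclei (log2 ratio 2.99, interval 2.73 to 3.27) and Scarna2 431 CPM at 24 h against 211 CPM in control, a call lost under total counts.

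Small nucleolar RNAs guide methylation (C/D box class) or pseudouridylation (H/ACA class) of ribosomal RNA. Of 243 genes annotated as snoRNA, 61 (25.1%) were higher and 30 (12.3%) lower, and the median log2 ratio of the class was −0.04. Those with a Snord symbol were higher for 16 of 34 and lower for 2 (median log2 ratio 0.78, 0.17 to 0.78 over the other scalings), and those with a Snora symbol higher for 7 of 15 and lower for 1 (median log2 ratio 0.94, 0.32 to 0.94 over the other scalings). Snord13 had 130.0 CPM at 24 h and 4.79 CPM in control nuclei (log2 ratio 4.76, interval 4.44 to 5.11). Snord32a had 42.3 CPM at 24 h and 2.73 CPM in control nuclei (log2 ratio 3.96, interval 3.52 to 4.43), Snord66 16.1 CPM at 24 h and 0.424 CPM in control nuclei (log2 ratio 5.25, interval 4.18 to 6.58) and Snord82 14.2 CPM at 24 h and 0.363 CPM in control nuclei (log2 ratio 5.29, interval 4.14 to 6.75). Snord66 and Snord82, like Snord34, Snord35a, Snord37 and Snord59a among the 16, had under 10 counts in control nuclei and were compared because of their 24 h level. Snora62 had 87.2 CPM at 24 h and 8.24 CPM in control nuclei (log2 ratio 3.40, interval 3.15 to 3.67). Snord98 fell to 1.57 CPM at 24 h, against 4.18 CPM in control nuclei (log2 ratio −1.41, interval −2.16 to −0.72).

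The sequences of the Y RNAs, U12 and 3 C/D box RNAs are shown because they carry large noncoding ratios. They are the transcripts of GENCODE M21 on GRCm38, written as DNA. Capitals mark TTTT in Rny1 (chr6:47788069-47788180, minus strand) and Rny3 (chr6:47781624-47781725, plus strand), where it is the 3′ end. They mark the Sm protein site ATTTTTG in Rnu12 (chr15:83149644-83149794, plus strand). In Snord66 (chr16:20684239-20684313, plus), Snord82 (chr1:86356261-86356330, minus) and Snord32a (chr7:45127382-45127464, minus) they mark each match of TGATGA, the C box sequence, and of CTGA, the D box sequence. Snord66 holds 3 matches of CTGA and Snord82 holds 2, so a marked CTGA need not be the D box. In Snord66 the first CTGA overlaps TGATGA.
Rny1: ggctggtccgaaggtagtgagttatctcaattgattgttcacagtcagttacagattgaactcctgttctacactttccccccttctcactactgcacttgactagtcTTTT
Rny3: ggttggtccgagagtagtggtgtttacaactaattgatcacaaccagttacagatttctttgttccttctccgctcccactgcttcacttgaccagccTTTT
Rnu12: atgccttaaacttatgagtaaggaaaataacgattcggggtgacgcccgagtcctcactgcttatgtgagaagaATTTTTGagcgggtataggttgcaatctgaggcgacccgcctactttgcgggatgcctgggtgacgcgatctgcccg
Snord66: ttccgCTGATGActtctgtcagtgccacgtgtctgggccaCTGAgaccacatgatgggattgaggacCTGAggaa
Snord82: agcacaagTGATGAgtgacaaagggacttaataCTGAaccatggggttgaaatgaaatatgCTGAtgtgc
Snord32a: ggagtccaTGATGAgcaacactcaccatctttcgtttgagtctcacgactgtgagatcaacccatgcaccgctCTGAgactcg
On the transcript's own strand, TTTT occurred in 51.4% of 566 misc_RNA transcripts and ATTTTTG in 3.33% of 1383 snRNA transcripts. Of the other RNA polymerase III transcripts read, Rpph1 and Rn7s2 held no TTTT. Bc1 held TTTT, but not as its last bases. TGATGA occurred in 26.1%, CTGA in 79.5% and both in 25.2% of 1507 snoRNA transcripts.

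Most mammalian snoRNAs are cut from introns of host genes, and the host transcripts were set beside them. Of 171 snoRNA and scaRNA genes inside a compared host gene, 63 were higher and 12 lower. The host was called higher for 4 of these 63 and neither for 59, beside 7.88% of all genes called higher, and the median host log2 ratio was 0.08. Higher hosts included Odc1 (log2 ratio 2.28, with Gm22748 inside it at 2.62) and Gsr (1.63, with Gm24727 at 2.05). Other hosts were called neither way. Snord82 lies in the nucleolin gene Ncl, whose log2 ratio was 0.08. Snord32a lies in the ribosomal protein gene Rpl13a, with −0.32. Snora62 lies in Rpsa, with 0.24. Of 92 such genes with no compared host, 10 were higher and 18 lower. Among 87 genes for cytosolic ribosomal proteins, none was higher and 1 was lower (median log2 ratio −0.04, −0.65 to −0.04 over the other scalings).

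**Figure D4:**
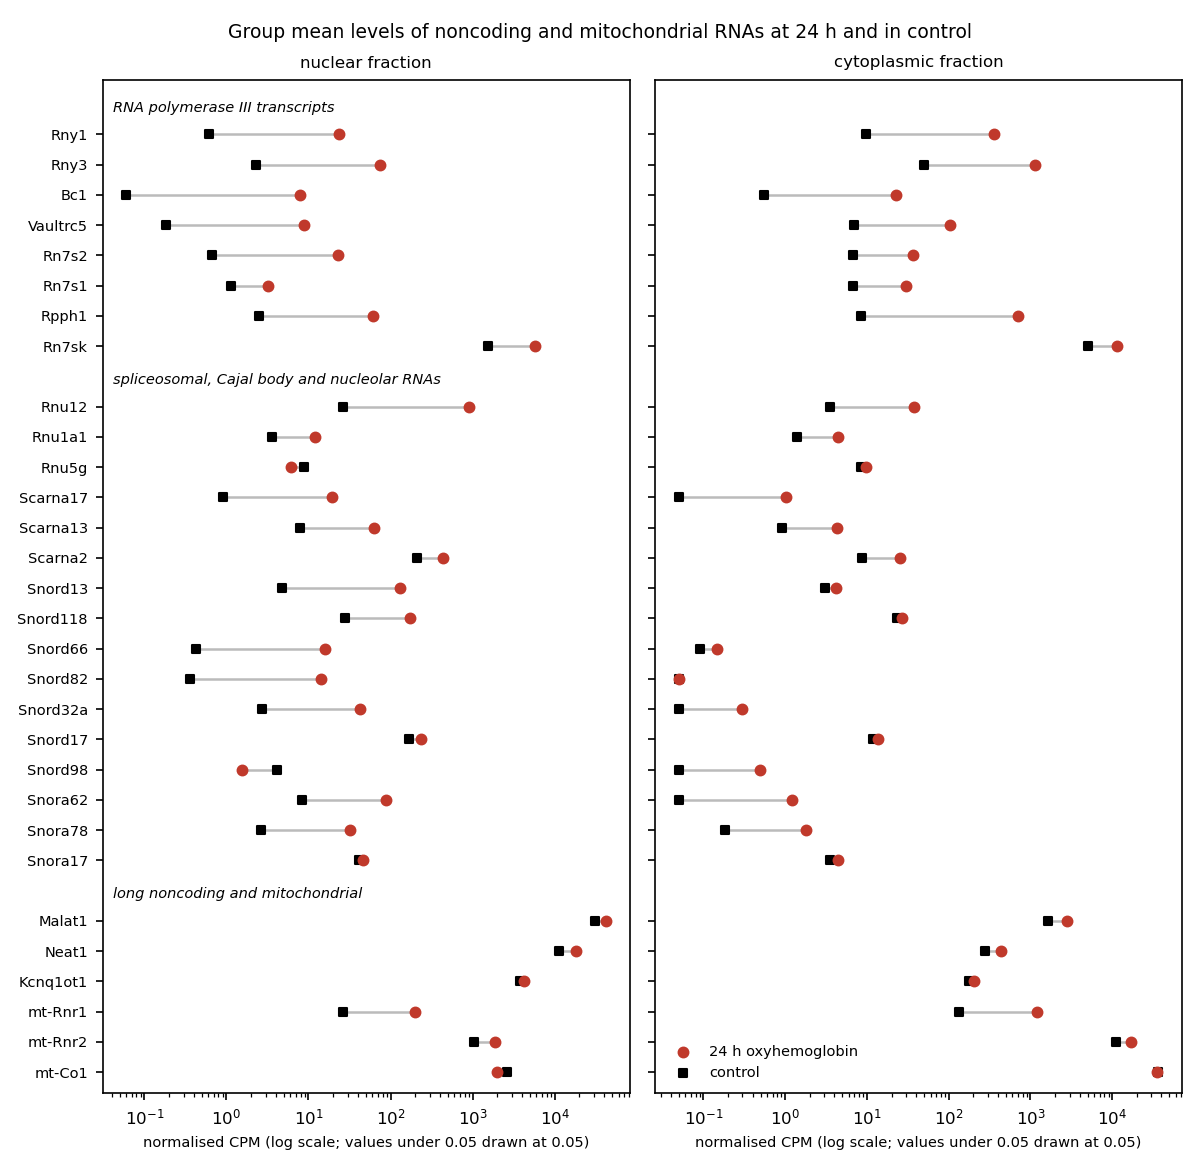
Group mean levels of noncoding and mitochondrial RNAs in the nuclear (left) and cytoplasmic (right) fraction, as normalised CPM on a log axis. Red circles are 24 h and black squares control; the 8 RNA polymerase III transcripts compared are higher in both fractions, while Snord13 differs in the nuclear fraction more than in the cytoplasmic one.

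The abundant nuclear long noncoding RNAs did not pass the size limit. Malat1 had 41774 CPM at 24 h and 31161 CPM in control nuclei (log2 ratio 0.42) and Neat1, the scaffold of paraspeckles, 18074 CPM at 24 h and 11413 CPM in control nuclei (0.66). Xist had 11331 CPM at 24 h and 13265 CPM in control nuclei (−0.23). Mir155hg, the precursor of the inflammatory microRNA miR-155, had 16.3 CPM at 24 h and 6.60 CPM in control nuclei (log2 ratio 1.30, interval 0.97 to 1.64). Of 11 mitochondrially encoded genes compared in the nuclear fraction, 2 were higher, of which 1 kept the call under total counts, and 1 was lower (median log2 ratio 0.73, 0.12 to 0.73 over the other scalings). The small ribosomal RNA mt-Rnr1 had 199 CPM at 24 h and 26.1 CPM in control nuclei (log2 ratio 2.93, interval 2.79 to 3.08), while mt-Rnr2 (1873 CPM at 24 h against 1049 CPM in control) and mt-Co1 (1974 CPM at 24 h against 2627 CPM in control, uncertain) did not pass. In the cytoplasm mt-Rnr1 had a log2 ratio of 3.19.

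Some called genes lay next to genes with the same call. Of 1333 higher genes with a position, 255 (19.1%) had a higher gene as nearest compared neighbour, against 7.29% of all genes. Of 938 lower genes, 112 (11.9%) had a lower neighbour, against 5.18% of all genes. On GRCm38, a run of 7 consecutive compared genes on chromosome 17, from 37508030 to 37627199, was lower and holds olfactory receptor genes Olfr111 to Olfr116. Olfr112 fell to 8.79 CPM at 24 h, against 109 CPM in control nuclei (log2 ratio −3.63, interval −3.90 to −3.37), Olfr113 to 19.6 CPM at 24 h, against 105 CPM in control nuclei and Olfr116 to 6.82 CPM at 24 h, against 73.1 CPM in control nuclei. Olfr111, Olfr113 and Olfr115 share 24.4%, 23.6% and 22.99% of their words with other genes and are uncertain. Of 18 olfactory receptor genes compared, 8 were lower and 1, Olfr129, higher (median log2 ratio −0.84, −1.34 to −0.81 over the other scalings). A run of 8 higher genes on chromosome 7, from 47077795 to 47391070, starts with Ptpn5 (14.2 CPM at 24 h and 3.94 CPM in control nuclei), a phosphatase gene, and holds Mrgpra1 (8.18 CPM at 24 h and 2.97 CPM in control nuclei) and Mrgpra6, genes of the Mas-related receptor family, whose shared sequence was not checked. Runs of 6 higher genes held Ccl2 and Ccl7 on chromosome 11, and C2cd4d (10.2 CPM at 24 h and 0.666 CPM in control nuclei) and Lingo4 on chromosome 3. Kctd12 stood in a run of 5 with Acod1, and Pilra in a run of 5 with Pilrb1 and Pilrb2. The noncoding genes Ptgs2os (1.56) and Ptgs2os2 (1.45) were higher beside Ptgs2, and Gm14023 (2.94) beside Il1a, whose exons it overlaps on the other strand. Transcripts that overlap on opposite strands cannot be told apart unless the counting used strand, which is not given in the sources used here. Of the genes named, Cebpb, Ebi3, Ltc4s, Rnf149, Scarna13 and Rpph1 share at least 20% of their exon bases with another annotated gene and are uncertain.

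The cytoplasm of the same cells was compared in the same way, 24 h over control, with its own scaling. There, 1163 of 11731 genes compared (9.91%) were higher and 830 (7.08%) lower. Of the 1336 genes higher in nuclei, 1061 were compared in the cytoplasm and 412 were higher there too, which is 38.8% of those compared and 35.4% of the cytoplasmic higher genes. Of the 940 lower in nuclei, 250 were compared in the cytoplasm, and 54.4% of those compared were lower there too, making up 16.4% of the cytoplasmic lower genes. Hmox1 had a log2 ratio of 1.75, Slc7a11 1.44, Acod1 2.52, Csf3 7.87 and Igf1 −3.36 in the cytoplasm. Plxna1, a semaphorin receptor gene, had 459 CPM at 24 h and 159 CPM in control nuclei (log2 ratio 1.52, interval 1.46 to 1.59) and a cytoplasmic log2 ratio of 0.20. Tnfrsf1b likewise had 0.87 in the cytoplasm against 1.94 in nuclei. The difference between fractions was not tested.

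The nuclear calls were graded by where a gene's RNA lay. Protein-coding genes were divided into 5 equal bins by their ratio of nuclear to cytoplasmic CPM at 12 h, a time that enters neither group. In the bin with the lowest ratio, 17.5% were higher at 24 h and 0.917% lower, and the median log2 ratio was 0.53. In the bin with the highest ratio, 2.25% were higher and 7.06% lower, and the median was −0.25. The cytoplasmic medians of those bins were −0.03 and 0.11. Genes with the fewest exons were higher in 14.1% and lower in 4.59%, and those with the most in 3.81% and 2.52%. Genes with the shortest span were higher in 12.1% and lower in 5.00%, and those with the longest in 4.13% and 3.99%. The part these properties play in the gene results was not tested.

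**Figure D5:**
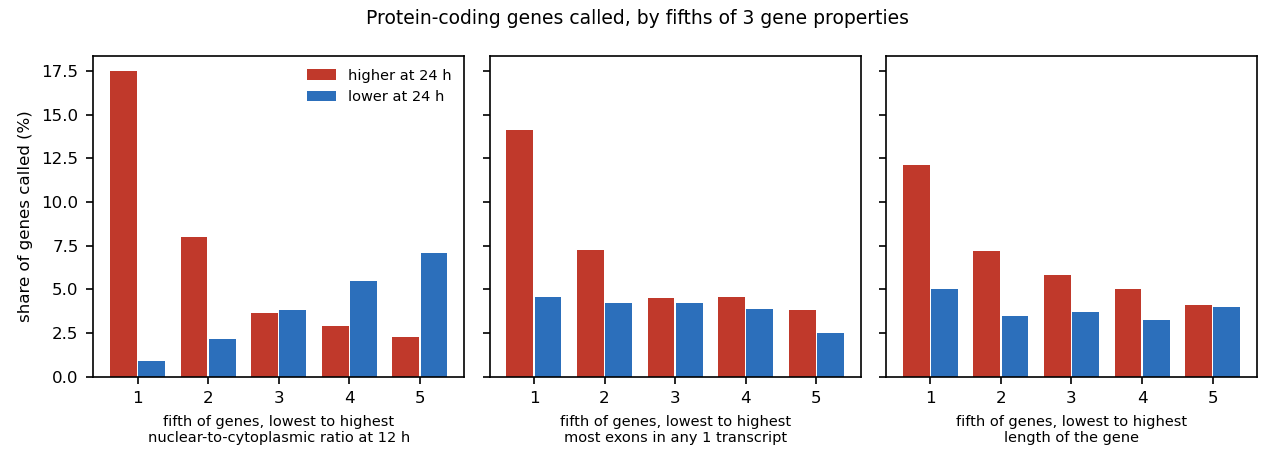
Share of protein-coding genes called higher (red) or lower (blue) at 24 h, in percent, by 5 equal bins of the nuclear-to-cytoplasmic ratio at 12 h (left), the number of exons (middle) and the length of the gene (right). The share called higher is greatest, at 17.5%, in the lowest bin of the nuclear-to-cytoplasmic ratio, and the share called lower is highest, at 7.06%, in the top bin.

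The 12 h nuclei share the control group with the 24 h nuclei, so the values are given side by side without a test. At 12 h, 1332 of 16940 genes (7.86%) were higher and 1095 (6.46%) lower. Csf3 had log2 ratios over control of 7.49 at 12 h and 6.28 at 24 h, Il1b 6.82 and 4.78, Il6 5.49 and 4.01, and Mmp13 4.02 and 1.51. These 4 had the larger ratio at 12 h. Nos2 had 2.69 and 3.39, Cebpb 1.54 and 2.16, Epha2 1.24 and 2.33, and Snord66 3.96 and 5.25. These 4 had the larger ratio at 24 h. Hmox1 had 2.28 and 2.33, close to each other. Mmp12 had 0.69 at 12 h and −1.49 at 24 h, on either side of control.

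The values just inside and just outside the size limit were close. Rnf149 (164 CPM at 24 h and 82.0 CPM in control nuclei) and Agtrap (58.5 CPM at 24 h and 29.3 CPM in control nuclei) were the least changed among higher coding genes with at least 50 CPM in 1 group, and Hspa4 (150.1 CPM at 24 h and 75.1 CPM in control nuclei) and Atp5b (184 CPM at 24 h and 91.9 CPM in control nuclei) lay just short of the limit. On the lower side, Arhgap5 (38.6 CPM at 24 h and 77.4 CPM in control nuclei) lay just inside and Ccnh (27.1 CPM at 24 h and 53.5 CPM in control nuclei) just outside.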

How the data were processed

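RNA of the nuclear and cytoplasmic fractions of BV2 cells was sequenced in 3 libraries per group. The deposited counts are group means: in each of the 6 columns every value times 3 was whole within 0.001, and they were treated as the authors' estimated counts. Per the submitters' processing notes, HISAT2 2.2.0, featureCounts and DESeq2 were used with GRCm38; settings, strand mode and annotation are not stated there. For TPM, the deposited values (1 mean per group) were used as an alternative with 1 or 0.1 added before log2. All 6 count columns were used, and 0 columns were left out. A test across libraries, planned in case the table held single libraries, could not be made.

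CPM values were scaled with TMM factors over the 3 nuclear groups (trims of 30% and 5%), and separately over the cytoplasmic ones. Genes with a mean count of at least 10 in either group were compared. A call needed a 2-fold difference and an exact Clopper-Pearson 95% interval, from the summed reads of the 3 libraries, that excluded a log2 ratio of 0. With 0 reads in a group the floor was 3 reads, or 0.187 CPM at 24 h and 0.205 CPM in control. The calling steps were also run on simulated counts drawn with counting error only. Such counts hold no spread between libraries, so the run cannot show how that spread affects the calls. Symbols, classes and positions came from GENCODE M21, which held 55227 of the 55487 gene IDs. A gene was called uncertain if it shared at least 20% of its 31-base words or of its exon bases with other genes.

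Genes were named by rule: the 12 highest and 12 lowest protein-coding genes and the 6 highest and 6 lowest others by ratio with at least 10 CPM, the 10 largest CPM differences each way, up to 4 members of each list by ratio with at least 5 CPM, and a fixed set of heme, cytokine and control genes. Other genes in the text, including those in runs and those near the size limit, were chosen after their values were seen. A few items are not reported here. The members and lists were chosen with earlier results of these data known. Tools were Python 3.11.15 with scipy 1.17.1, pandas 2.3.3, matplotlib 3.10.9 and numpy 2.4.6.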

Additional observations from a re-analysis of the deposited data

How the results depend on the processing

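The number of genes called, and the balance between directions, depended on the scaling and on the limits, and no called gene among those named changed direction. With total counts 765 genes were higher and 1972 lower, and with total counts without the most abundant gene 852 were higher and 1660 lower. With the deposited TPM, 339 were higher and 2280 lower after adding 1, and 450 were higher and 3934 lower after adding 0.1. Median-of-ratios, upper-quartile and 6-group TMM scaling gave counts within 1.5 times of 1336 and 940. A minimum mean count of 30 left 446 lower genes and no minimum gave 2116 higher and 1487 lower, since genes with fewer reads enter. A 1.5-fold limit gave 2941 higher and 2454 lower genes, and a 3-fold limit 503 and 264. Of 256 named genes, 183 were called and 151 of these kept their call under each scaling of the counts. Of 55 list medians, 25 changed sign under at least 1 scaling. No paired analysis was possible because each column is a group mean without replicate numbers, and leaving out single libraries was not run for the same reason. Depth limits low genes: 3 reads equal 0.187 CPM at 24 h and 0.205 CPM in control.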

Other observations

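The list counts here stand beside the shares over all 16960 genes, 7.88% higher and 5.54% lower. Several lie near those shares and are no result about their families. Of 19 other interleukin genes, 5 were higher and 2 lower (median log2 ratio 0.07, −0.54 to 0.07 over the other scalings). Of 8 colony-stimulating factor genes and their receptors, 2 were higher and 1 lower (median log2 ratio −0.20, −0.80 to −0.20 over the other scalings). Of 22 amino acid transporters, 3 were higher and none lower (median log2 ratio 0.36, −0.25 to 0.36 over the other scalings). Of 26 ion channel genes, 1 was higher and none lower (median log2 ratio 0.31, −0.30 to 0.31 over the other scalings). Purinergic genes were higher for 2 of 16 and lower for 2 (median log2 ratio −0.37, −0.98 to −0.37 over the other scalings), and complement genes higher for 2 of 10 and lower for none (median log2 ratio 0.06, −0.52 to 0.06 over the other scalings). Of 31 targets of the stress factor ATF4, 3 were higher and none lower (median log2 ratio 0.11, −0.50 to 0.11 over the other scalings), and of 19 p53 targets 3 were higher and 2 lower (median log2 ratio 0.15, −0.46 to 0.15 over the other scalings). Of 22 apoptosis genes 2 were higher and none lower (median log2 ratio 0.19, −0.40 to 0.19 over the other scalings). Of 31 hypoxia and glycolysis genes 2 were higher and 1 lower (median log2 ratio 0.06, −0.55 to 0.06 over the other scalings). Of 20 clock genes 2 were higher and none lower (median log2 ratio −0.15, −0.75 to −0.15 over the other scalings). Of 45 macrophage transcription factor genes 3 were higher and 3 lower (median log2 ratio −0.08, −0.68 to −0.08 over the other scalings). Of 30 hosts of small nucleolar RNAs 1 was higher and 1 lower (median log2 ratio −0.07, −0.68 to −0.07 over the other scalings), and of 26 nuclear long noncoding RNAs and microRNA hosts 4 were higher and none lower (median log2 ratio −0.01, −0.62 to −0.01 over the other scalings). Under every scaling of the counts, 3 of the 5 higher other interleukin genes kept the call, 1 higher gene each of the purinergic, complement, p53, apoptosis and clock lists did, and none of the hypoxia list or of the snoRNA hosts did. Gapdh, of glycolysis, had 127 CPM at 24 h and 127 CPM in control nuclei and is uncertain because other genes share 28.1% of its words.

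Of 1461 processed pseudogenes, copies of mRNAs inserted into the genome, 263 (18%) were higher and 101 (6.91%) lower at 24 h. Reads from a parent gene and its pseudogene cannot be separated with these counts. Of 1071 antisense genes 47 (4.39%) were higher and 76 (7.10%) lower.

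In 6 genes, chosen after their values were seen, the nuclear and cytoplasmic calls at 24 h went opposite ways. Tmem8 and Gm15429 were higher in nuclei (1.2 and 1.42) and lower in cytoplasm (−2.73 and −1.49). Mkrn1, Ccdc96, Plekho2 and Nanp were lower in nuclei (−1.29, −1.18, −1.04 and −1.21) and higher in cytoplasm (1.53, 1.83, 1.32 and 2.78). The nuclear call of Tmem8 was lost under total counts.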
